A study of Mus musculus with 12 samples.

Results

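The let-7 guide arms are the 9 mature miRNAs cut from the 5′ side of the let-7 and miR-98 hairpins. They are mmu-let-7a-5p, mmu-let-7b-5p, mmu-let-7c-5p, mmu-let-7d-5p, mmu-let-7e-5p, mmu-let-7f-5p, mmu-let-7g-5p, mmu-let-7i-5p and mmu-miR-98-5p. They were picked by name. All 9 were listed among the 1084 entries of the table of adipose extracellular vesicles and among the 1163 of the hippocampus table. They passed the filter on low counts in both. Small RNA was sequenced in 4 groups of 3 libraries from male wild-type C57BL/6J mice. The groups were extracellular vesicles (EVs, membrane particles shed by cells) from adipose tissue of mice on a high-fat diet (HFD), the same EVs from chow-fed mice, hippocampus from HFD mice and hippocampus from chow-fed mice, with 12 weeks on either diet. The labels do not say which adipose depot was used or whether a library pooled animals, and the chow hippocampus libraries are table columns headed LFD, matched to their samples by number.

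let-7 was found in the worm Caenorhabditis elegans as a gene that times the passage to adult cell fates, and in mammals the family is abundant in differentiated cells and is held back in stem cells by the RNA-binding protein LIN28. A guide arm is loaded into an Argonaute protein and pairs with messenger RNAs mainly through its seed, so members with one seed share most predicted targets, among them Lin28, Hmga2, Ras genes and the insulin and IGF receptors. Excess let-7 in mice impairs glucose tolerance, and let-7b outside cells can act on neurons through the receptor TLR7.

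The 9 sequences are shown because they account for what the members share and for how closely a read of one resembles another. They were taken from RefSeq on GRCm38.p6, run 5′ to 3′, and have the seed, bases 2 to 8, in capitals.

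let-7a-5p: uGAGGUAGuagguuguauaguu

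let-7b-5p: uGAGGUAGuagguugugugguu

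let-7c-5p: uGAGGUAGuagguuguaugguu

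let-7d-5p: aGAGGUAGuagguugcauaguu

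let-7e-5p: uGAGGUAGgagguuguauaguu

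let-7f-5p: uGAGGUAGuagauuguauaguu

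let-7g-5p: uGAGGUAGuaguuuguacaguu

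let-7i-5p: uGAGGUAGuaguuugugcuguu

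miR-98-5p: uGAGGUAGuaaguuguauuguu

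All 9 are 22 bases long and hold the seed GAGGUAG. Counting positions from 1 at the 5′ end and with let-7a-5p as the base of comparison, let-7f-5p differs by G12A, let-7c-5p by A19G and let-7e-5p by U9G. let-7b-5p differs by A17G and A19G, let-7d-5p by U1A and U16C, let-7g-5p by G12U and U18C, and miR-98-5p by G11A and A19U. let-7i-5p stands farthest from let-7a-5p, with G12U, A17G, U18C and A19U. The share of G and C runs from 31.8% in let-7f-5p and miR-98-5p to 36.4% in let-7a-5p and let-7g-5p, 40.9% in let-7c-5p, let-7d-5p, let-7e-5p and let-7i-5p, and 45.5% in let-7b-5p. Among the 1144 listed miRNAs with a RefSeq sequence, 1 non-member had the same seed. It was let-7k, which had at most 1 count in any library.

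The hairpins lie on 7 chromosomes in GRCm38.p6, and several members have more than one. On chromosome 13, let-7a-1, let-7f-1 and let-7d lie within 48536012 to 48538272 on the minus strand, each in an exon of the lincRNA 6720427I07Rik. On the X chromosome, let-7f-2 at 151912346 to 151912428 and miR-98 at 151913214 to 151913321 lie in an intron of the protein-coding gene Huwe1. let-7c-2 and let-7b each lie in an exon of the noncoding transcript Lncppara on chromosome 15, at 85706603 to 85707403. let-7c-1 lies in an intron of Mir99ahg on chromosome 16, at 77599657 to 77599750, and let-7e in an intron of Spaca6 on chromosome 17, at 17830352 to 17830444. On chromosome 9, let-7a-2 at 41536716 to 41536811 lies in an intron of 3110039I08Rik and let-7g at 106178840 to 106178927 in an intron of Wdr82. let-7i lies in an exon of the pseudogene D630033A02Rik on chromosome 10, at 122985640 to 122985724.

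HFD EV libraries held 1825488 to 5941955 counts and chow EV libraries 2120171 to 2294878. HFD hippocampus libraries held 11143775 to 12874600 counts and chow hippocampus libraries 2331091 to 5723918, so in hippocampus depth and diet cannot be told apart. The 4 neuron markers summed to 230638 to 284747 CPM (counts scaled to a common library size) in HFD hippocampus and 228052 to 408954 CPM in chow hippocampus. In EVs the same sum was 1022 to 2030 CPM with HFD and 697 to 2058 CPM with chow, mostly miR-128-3p and miR-9-5p, while the neuronal miR-124-3p had 4 counts at most in a library. Levels are given below as CPM after TMM scaling, which lines up libraries on the bulk of their miRNAs, separately for EVs and for hippocampus. In bulk samples such as these, fewer cells or vesicles of a type and less of a miRNA in each cannot be told apart.

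The first comparison asked how the diet altered the let-7 cargo of adipose EVs. The 9 members together held 15.7, 14.8 and 13.4% of all counts in the HFD EV libraries, against 4.90, 7.96 and 5.96% in the chow EV libraries. Every HFD library was above every chow library, at means of 14.6 ± 1.16% and 6.27 ± 1.55% (SD, n = 3 each). A share also depends on the most abundant miRNA, miR-148a-3p, which took 21.0 to 26.4% of the counts with HFD and 34.1 to 57.2% with chow. With miR-148a-3p out of the denominator the family held 19.2 ± 0.863% in HFD EVs and 11.4 ± 2.96% in chow EVs, still without overlap.

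let-7f-5p, the most abundant member, made up most of that difference. It held 8.17, 7.70 and 7.32% of all counts in HFD EVs, against 1.95, 3.40 and 2.26% of them in chow EVs. On the scaled axis it stood at 75179, 64979.8 and 67714 CPM in HFD EVs, against 21645, 30167 and 31949 CPM in chow EVs. The groups did not overlap, and the HFD libraries lay close together. The fitted log2 fold change was 1.31 ± 0.22 (SE), a fold of 2.48, with an adjusted p of 0.0217 in edgeR's quasi-likelihood test, Benjamini-Hochberg adjusted over all 389 miRNAs tested. let-7f-5p was the 4th, 3rd and 4th most abundant miRNA of the HFD EV libraries, and the 7th, 6th and 7th of the chow EV libraries.

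miR-98-5p, a rare member, had the largest fold change of the 9. It reached 737, 683 and 760 CPM with HFD, against 143, 200.3 and 249 CPM with chow. These groups were also far apart, with a spread of 40.1 CPM (SD) in HFD EVs and 53.2 CPM in chow EVs. The log2 fold change was 1.88 ± 0.31 (SE), a fold of 3.68, with an adjusted p of 0.0217. The hairpin of miR-98 is the neighbour of let-7f-2 in Huwe1, and the mature forms of miR-98 and let-7f differ at 3 positions. miR-98-5p made up 0.509, 0.547 and 0.613% of the family's counts in HFD EVs and 0.262, 0.284 and 0.295% in chow EVs, so it increased more than the family as a whole did. How many mismatches the alignment allowed is not given in the sources used here, and the part that misassigned reads of abundant relatives could have in so rare a member was not tested.

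Thus 2 of 9 members passed the test and both rose, where 4.37% of all miRNAs tested were called. Between the diets 7 of the 9 did not overlap (all but let-7c-5p and let-7e-5p), against 32.6% of all miRNAs tested. The members' median log2 fold change was 0.86, and that of all miRNAs −0.13. Without adjustment, 6 members were higher and 1 was lower at p under 0.05, as 99 of the 389 miRNAs were in either direction.

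The other members with values above 0 did not pass adjustment. let-7a-5p had 16393, 11261 and 9917 CPM in HFD EVs, against 6259, 8304 and 6113 CPM in chow EVs, or 0.86 ± 0.27 as log2 fold change with its SE (adjusted p = 0.0956). let-7i-5p had 16551, 14508 and 14105 CPM in HFD EVs, against 6430.0, 7533 and 10907 CPM in chow EVs (log2 fold change 0.86 ± 0.26, adjusted p = 0.0838). let-7g-5p had 16306, 18792 and 19107 CPM in HFD EVs, against 6339, 7557 and 14936 CPM in chow EVs (0.91 ± 0.34, adjusted p = 0.143). These 3 had no overlap between diets, and chow EV library 3 was the nearest to the HFD level for let-7g-5p and let-7i-5p. Without chow EV library 3, let-7g-5p reached 1.47 (adjusted p = 0.0214) and let-7i-5p 1.21 (adjusted p = 0.0379). Each passed in that 1 alone of the 6 fits with 1 library left out. In the other such fits the adjusted p went up to 0.350 for let-7g-5p and 0.231 for let-7i-5p. let-7d-5p had a log2 fold change of 0.84 ± 0.32 (adjusted p = 0.145) and let-7e-5p one of 0.65 ± 0.35 (adjusted p = 0.285).

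let-7b-5p and let-7c-5p did not share in the rise. let-7b-5p had 2567, 2025 and 2066 CPM in HFD EVs, against 3034, 3182 and 3653 CPM in chow EVs. All 3 HFD libraries lay under all 3 chow libraries, but the log2 fold change, −0.57 ± 0.24 (SE), missed the threshold after adjustment (adjusted p = 0.187). let-7c-5p had 14236, 10530.0 and 8751 CPM in HFD EVs, against 9401, 12246 and 15593 CPM in chow EVs. Its groups overlapped, at −0.15 ± 0.28 (adjusted p = 0.810, 95% interval −0.81 to 0.50), and its sign turned with library totals in place of TMM, without the filter on low counts, and when chow EV library 3 or HFD EV library 3 was left out.

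**Figure D1:**
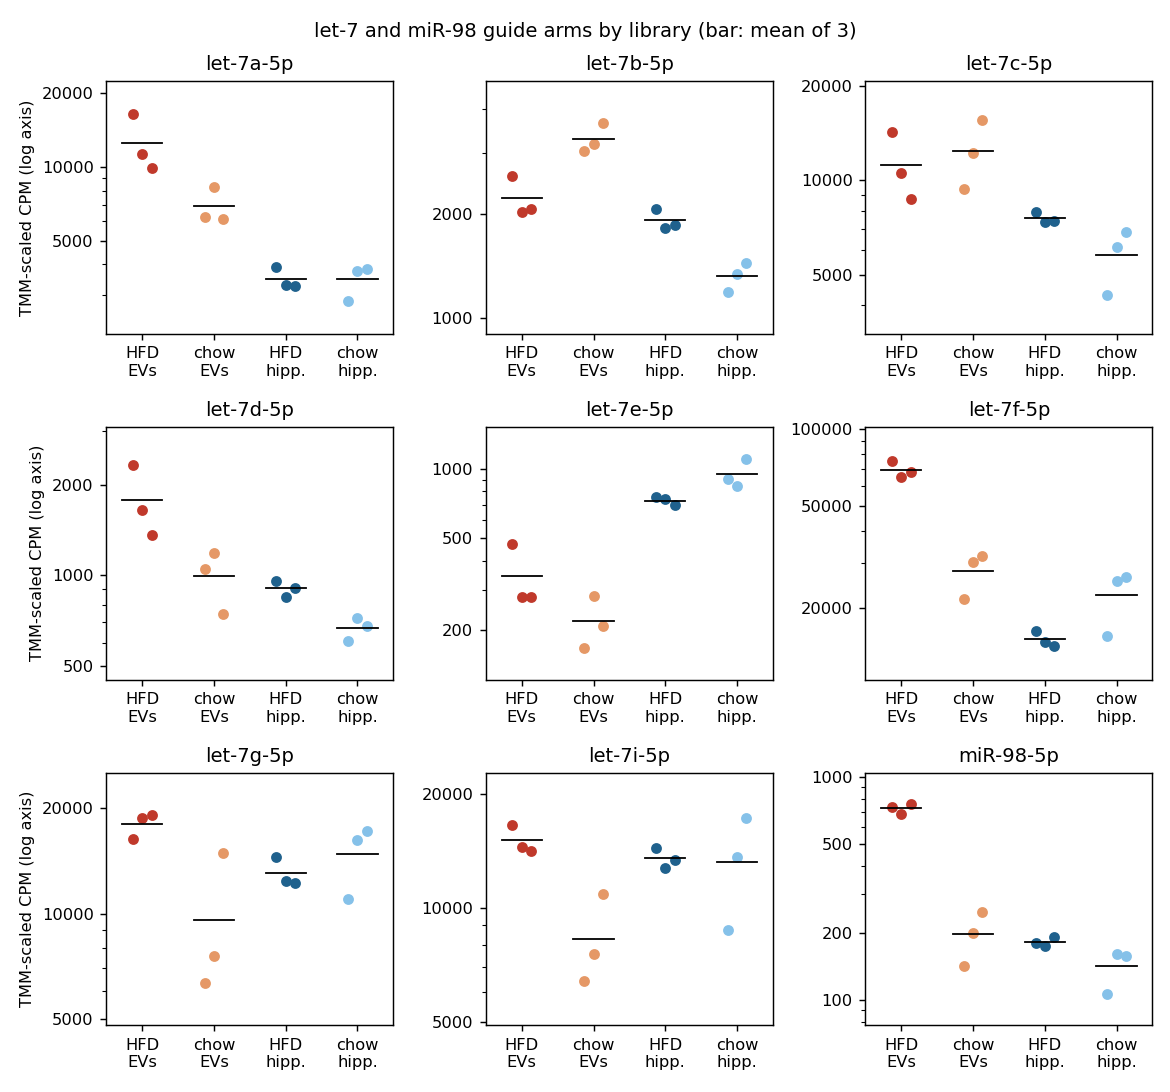
Level of each let-7 guide arm in each of the 12 libraries, in TMM-scaled CPM on a log axis, with 1 point per library and a bar at the mean of 3; EVs and hippocampus were scaled separately. In EVs the HFD points of let-7f-5p (64979.8 to 75179 CPM) and miR-98-5p (683 to 760 CPM) lie far above the chow points (21645 to 31949 CPM and 143 to 249 CPM), while those of let-7b-5p lie below.

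The calls of let-7f-5p and miR-98-5p in EVs were kept in all 11 other settings that used all libraries, at log2 fold changes of 1.01 to 1.61 and 1.58 to 2.20. They ended without chow EV library 1 (adjusted p = 0.0658), chow EV library 2 (0.0623), HFD EV library 1 (0.0899) or HFD EV library 2 (0.108), settings in which edgeR called 0 miRNAs of the whole table (80, 95, 82 and 66 at an unadjusted p under 0.05), while the log2 fold changes stayed within 1.24 to 1.51 and 1.80 to 2.17.

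In hippocampus the same diet gave another picture. The family's share of all counts was 5.75, 6.13 and 6.07% in the HFD libraries, against 5.02, 6.82 and 5.68% in the chow libraries. The HFD values lay inside the chow range, at means of 5.98 ± 0.205% and 5.84 ± 0.911% (SD, n = 3 each). On the TMM scale the HFD mean was the lower one, at 56433 ± 3878 CPM with HFD and 62894 ± 15677 CPM with chow, again with overlap. None of the 9 members passed the test, where 11.8% of 552 miRNAs tested were called (at an unadjusted p under 0.05, edgeR had 2 members higher and 1 lower, beside 164 of all 552, and after adjustment DESeq2 called 2 members, beside 109 of all, and limma 0). The unadjusted and DESeq2 counts of members are close to the shares over all miRNAs. The members' median log2 fold change was 0.03, and that of all miRNAs −0.13.

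let-7f-5p, which rose in EVs, had 16283, 14780.4 and 14253 CPM in HFD hippocampus, against 15533, 25464 and 26529 CPM in chow hippocampus. The groups overlapped through chow library 1 alone. Its log2 fold change was −0.58 ± 0.24 (SE, adjusted p = 0.161, 95% interval −1.13 to −0.02). miR-98-5p had 181, 175 and 191 CPM in HFD hippocampus, against 106, 161 and 158 CPM in chow hippocampus, at 0.36 ± 0.23 (adjusted p = 0.320, 95% interval −0.16 to 0.89).

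let-7b-5p and let-7c-5p, which had the lowest values in EVs, had values above 0 here. let-7b-5p had 2058, 1821 and 1862 CPM in HFD hippocampus, against 1191, 1341 and 1447 CPM in chow hippocampus. The groups did not overlap, and the log2 fold change was 0.53 ± 0.17 (SE, adjusted p = 0.0768). let-7c-5p had 7918, 7395 and 7408 CPM in HFD hippocampus, against 4315, 6139 and 6864 CPM in chow hippocampus, at 0.39 ± 0.21 (adjusted p = 0.253). let-7b-5p passed with DESeq2 (adjusted p = 0.00820), with DESeq2's size factors in edgeR (0.0455), with every library thinned to the shallowest (0.0419) and without chow hippocampus library 3 (0.0299). These were 3 of the 11 other settings that used all libraries and 1 of the 6 fits with 1 library left out. In the rest the adjusted p went up to 0.307 and 0.178.

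The remaining members ranged between −0.38 for let-7e-5p (adjusted p = 0.191) and 0.44 for let-7d-5p (adjusted p = 0.128, and 0.0293 with DESeq2). let-7e-5p had 754, 741 and 696 CPM in HFD hippocampus, against 909, 842 and 1109 CPM in chow hippocampus. let-7a-5p (0.00, 95% interval −0.43 to 0.44), let-7i-5p (0.03, −0.57 to 0.62) and let-7g-5p (−0.18, −0.69 to 0.33) had intervals that spanned 0 and groups that overlapped. Between the diets 5 of the 9 members did not overlap (let-7b-5p, let-7c-5p, let-7d-5p, let-7e-5p and miR-98-5p), against 37.3% of all miRNAs tested.

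Whether the diet effect differed between EVs and hippocampus was tested as an interaction over all 12 libraries. Of the 852 miRNAs listed for both sample types, 519 passed the filter on low counts over the 12 libraries and were tested. A miRNA can pass this filter through 1 group alone. The diet effect on let-7f-5p in EVs exceeded that in hippocampus by 1.98 ± 0.41 on the log2 scale (SE, adjusted p = 0.00735). For miR-98-5p the difference was 1.63 ± 0.46 (adjusted p = 0.0482). These 2 of 9 members were called, where 5.78% of all miRNAs were. The other 7 were not, and ranged between −0.99 ± 0.36 for let-7b-5p (adjusted p = 0.122) and 1.20 ± 0.45 for let-7g-5p (adjusted p = 0.135), with a median over all miRNAs of 0.23. let-7b-5p passed at −1.38 with DESeq2 (adjusted p = 4.5e-06) and with DESeq2's size factors in edgeR (0.00995), but not in the 6 other settings that used all libraries, and let-7g-5p passed at 1.29 with library totals alone (0.0424).

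The difference for let-7f-5p held in all 8 other settings that used all libraries (1.61 to 1.99) but ended without chow EV library 1 (adjusted p = 0.0638) or HFD EV library 2 (0.050, a value just above the threshold). That for miR-98-5p held in 4 of those 8 and in 2 of the 12 fits with 1 library left out, with adjusted p between 0.0153 and 0.159 over the 8.

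**Figure D2:**
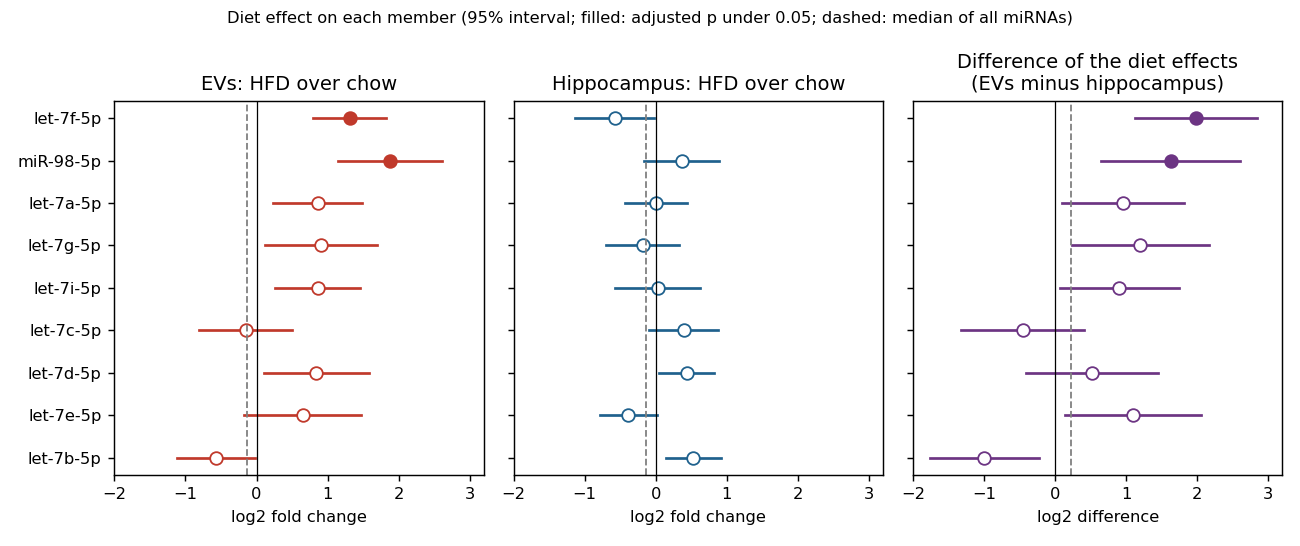
Diet effect on each let-7 guide arm in EVs and in hippocampus (HFD over chow, log2) and the difference of both effects, with 95% intervals; filled points have an adjusted p under 0.05 and the dashed line is the median of all miRNAs tested. let-7f-5p and miR-98-5p are filled in the EV panel (1.31 and 1.88) and in the panel of the difference (1.98 and 1.63), and no member is filled in the hippocampus panel.

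The make-up of the family was then compared, since a ratio of 2 members within a library does not depend on how libraries are scaled. let-7f-5p made up 51.9, 52.1 and 54.6% of the family's counts in HFD EVs, against 39.7, 42.7 and 37.9% in chow EVs. In hippocampus it made up 26.7, 27.3 and 26.3% with HFD, against 34.3, 37.3 and 35.3% with chow. The diets did not overlap in either sample type, and the direction was opposite.

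let-7c-5p ran the other way. It made up 9.83, 8.44 and 7.05% of the family in HFD EVs, against 17.3, 17.3 and 18.5% in chow EVs. In hippocampus it made up 13, 13.6 and 13.7% with HFD, against 9.54, 8.99 and 9.13% with chow. let-7b-5p did the same, making up 1.77, 1.62 and 1.67% of the family in HFD EVs, against 5.57, 4.50 and 4.33% in chow EVs. In hippocampus let-7b-5p made up 3.38, 3.36 and 3.44% with HFD, against 2.63, 1.96 and 1.93% with chow.

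**Figure D3:**
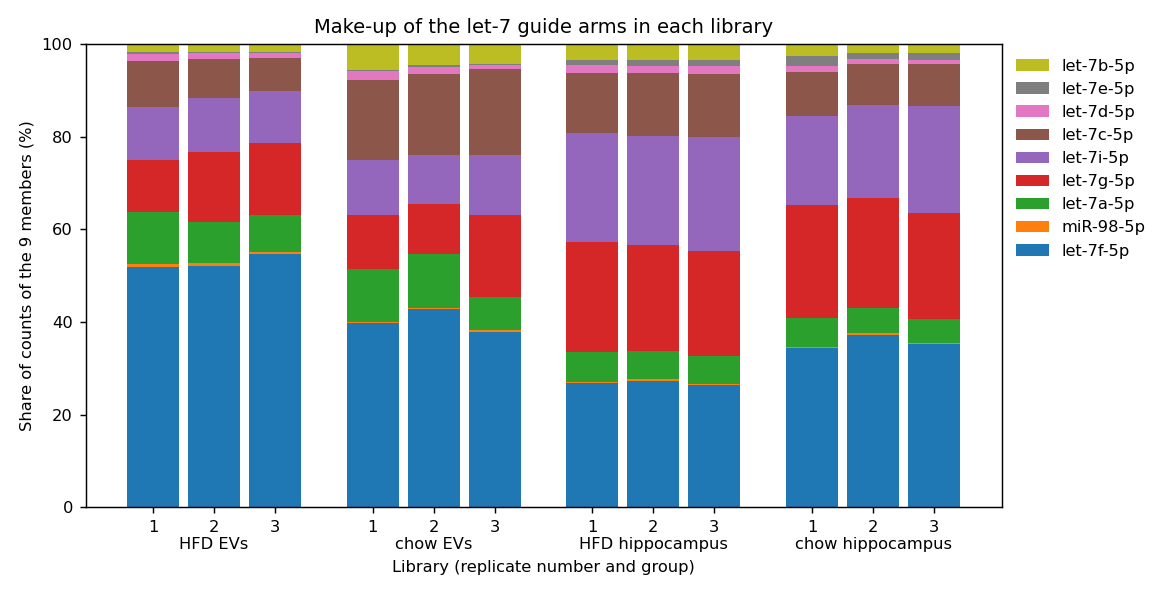
Share of each let-7 guide arm in the summed counts of the 9 members, in percent, with 1 bar per library. The let-7f-5p segment is taller with HFD in EVs (51.9 to 54.6% against 37.9 to 42.7% with chow) and shorter with HFD in hippocampus (26.3 to 27.3% against 34.3 to 37.3% with chow), and the let-7c-5p segment moves the opposite way in both.

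As a ratio of counts, let-7c-5p stood at 0.189, 0.162 and 0.129 of let-7f-5p in HFD EVs, against 0.434, 0.406 and 0.488 in chow EVs. In hippocampus the ratio was 0.486, 0.500 and 0.520 with HFD, against 0.278, 0.241 and 0.259 with chow. The ratio in HFD hippocampus thus overlapped that in chow EVs, and the ratio in chow hippocampus lay between those of the EV groups. The diet effect on the log2 ratio was −1.48 in EVs and 0.96 in hippocampus. For let-7b-5p over let-7f-5p it was −1.90 in EVs and 1.07 in hippocampus.

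The difference between EVs and hippocampus in these diet effects was −2.44 and −2.97 on the log2 scale. Permuting the diet labels within each sample type in all 400 ways gave either difference an exact two-sided p of 0.005, the smallest possible (adjusted p = 0.0164 over the 36 pairs of members). Such permuting takes the diet to have no effect in either sample type, so a ratio altered in 1 sample type alone can also pass. let-7b-5p over let-7d-5p, at −1.40 in EVs and 0.09 in hippocampus, did so (adjusted p = 0.0277). Of those 36 pairs, 16 passed in this way, and 11 moved in opposite directions without any overlap between the diets in either sample type. The pairs reuse the same members, so they are not separate results. Each of these 11 held let-7b-5p or let-7c-5p, except the ratio of let-7f-5p to let-7i-5p. Within a sample type 3 libraries against 3 cannot go below an exact p of 0.1, which 21 pairs reached in EVs and 24 in hippocampus. The share of such pairs among all miRNAs was not computed for any of these counts, so they are a description.

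The order of the members by level followed from this. In HFD EVs it was let-7f-5p, let-7g-5p, let-7i-5p, let-7a-5p, let-7c-5p, let-7b-5p, let-7d-5p, miR-98-5p and let-7e-5p, from 69291 ± 5279 CPM down to 344 ± 113 CPM. In chow EVs let-7c-5p stood next after let-7f-5p and miR-98-5p came last, from 27920.2 ± 5507 CPM down to 197 ± 53.2 CPM. The ranges of let-7g-5p, let-7i-5p, let-7a-5p and let-7c-5p overlapped from neighbour to neighbour in both EV groups, and let-7f-5p stood clear of all of them. In hippocampus let-7f-5p, let-7g-5p and let-7i-5p overlapped from neighbour to neighbour on both diets, and let-7c-5p, let-7a-5p and let-7b-5p followed in that order, each clear of the next.

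Averaged by base composition, the members' diet effects were ordered in EVs. By share of G and C, the mean log2 fold change in EVs was 1.60 for the 2 members at 31.8%, 0.89 for the 2 at 36.4%, 0.55 for the 4 at 40.9% and −0.57 for let-7b-5p at 45.5%. In hippocampus the same means were −0.11, −0.09, 0.12 and 0.53. Single members did not keep the order strictly. In EVs the 4 at 40.9% ran from −0.15 (let-7c-5p) to 0.86 (let-7i-5p), the level of let-7a-5p at 36.4% (0.86). Pearson's r over the 9 members was −0.86 in EVs, 0.46 in hippocampus and −0.85 for the difference of the diet effects. The 9 share a library and much of their sequence, so r is a description.

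Over non-members with a sequence, r was −0.22 in EVs (n = 319) and 0.096 in hippocampus (n = 461). With the trend on G and C over all miRNAs removed from each library, let-7f-5p had a log2 fold change of 1.01 (adjusted p = 0.0435) and miR-98-5p of 1.58 (adjusted p = 0.0252) in EVs. let-7b-5p was at −0.59 in that fit. The difference between sample types was 1.62 for let-7f-5p (adjusted p = 0.0383) and 1.28 for miR-98-5p, which no longer passed (adjusted p = 0.114).

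**Figure D4:**
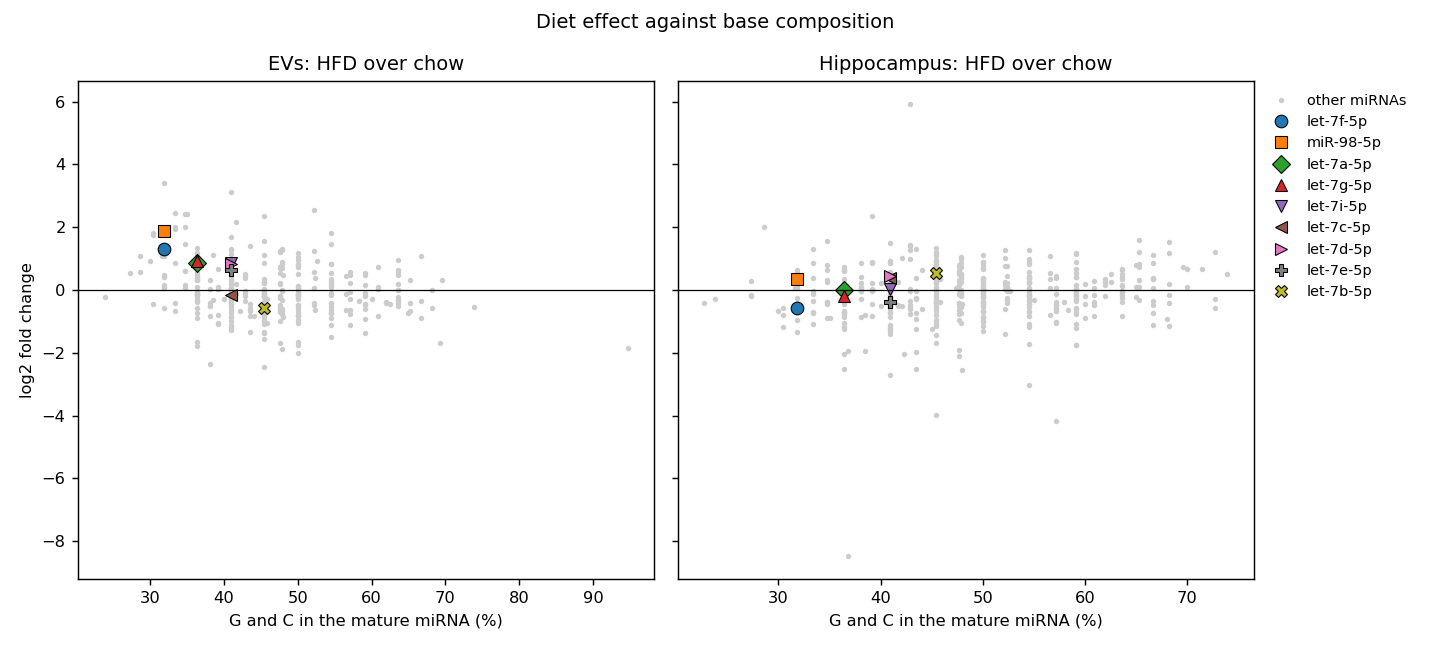
Diet effect (log2 fold change, HFD over chow) against the share of G and C in the mature miRNA, in EVs and in hippocampus; grey points are the other miRNAs tested that have a RefSeq sequence and coloured symbols the 9 let-7 guide arms. The members tend downward in EVs from 1.88 for miR-98-5p at 31.8% to −0.57 for let-7b-5p at 45.5%, a slope that is not seen in hippocampus, where let-7b-5p is the highest at 0.53.

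EVs and hippocampus were also compared directly, on CPM scaled over all 12 libraries. let-7e-5p was the only member that passed the test as lower in EVs on both diets. It had 530, 316 and 321 CPM in HFD EVs, against 634, 698 and 609 CPM in HFD hippocampus. In chow mice it had 180, 326 and 224 CPM in EVs, against 895, 941 and 761 CPM in hippocampus. The log2 difference was −0.73 ± 0.32 (SE, adjusted p = 0.0453) with HFD, a call kept in 5 of the 12 fits with 1 library left out (lost without HFD EV library 2 or 3, chow hippocampus library 1 or 2, or any HFD hippocampus library, with adjusted p up to 0.129), and −1.83 ± 0.33 (adjusted p = 0.000101) with chow.

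let-7f-5p had 83965, 73979 and 77616 CPM in HFD EVs, against 13677, 13931 and 12465 CPM in HFD hippocampus, a log2 difference of 2.56 ± 0.30 (adjusted p = 1.1e-06). In chow mice it had 23162, 34730 and 34293 CPM in EVs, against 15296, 28447 and 18193 CPM in hippocampus. These groups overlapped, and the difference of 0.57 ± 0.29 did not pass (adjusted p = 0.0760). With HFD 7 members were higher and 1 was lower in EVs, and with chow 4 were higher and 1 lower. Some of the higher calls depended on the setting. With HFD, let-7b-5p (adjusted p = 0.0476) was kept in 2 of the 8 other settings that used all libraries, let-7g-5p in 3 and let-7c-5p in 6. With 1 library left out they were kept in 2, 7 and 6 of 12 fits. With chow, let-7d-5p was kept in 5 of the 8 settings and 9 of the 12 fits. Of the 519 miRNAs tested, 81.5% were called in either direction with HFD and 79.4% with chow. The 5 members called with chow became 7 with DESeq2, with DESeq2's size factors in edgeR and with limma. All miRNAs called were then 413, 407 and 408 of the 519. The share of members called with chow thus depended on the setting.

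The other arms of the same hairpins, usually degraded as passengers, were looked at beside the guides. The change of guide and passenger was not tested against each other. In EVs 8 of the 11 that were listed could be tested and 0 passed in edgeR (0 also at an unadjusted p under 0.05, with DESeq2 and with limma), with a median log2 fold change of −0.12. In hippocampus 11 were tested and 0 passed in edgeR (5 at an unadjusted p under 0.05, 3 with DESeq2 and 0 with limma), with a median of −0.25. The passenger miR-98-3p averaged 29.7 ± 11.8 CPM in HFD EVs and 28.5 ± 8.77 CPM in chow EVs. The count of the miR-98 guide over its passenger was thus 34.5, 27.9 and 17.6 in EVs with HFD, against 7.20, 7.07 and 6.66 with chow. The same ratio was 116, 158 and 80.5 in hippocampus with HFD, against 40.3, 29.7 and 31.0 with chow, where the passenger had 9 to 33 counts a library. let-7d was the one hairpin of the 6 compared whose passenger rivalled its guide in EVs, at a guide over passenger ratio of 2.31, 2.16 and 1.68 with HFD and 0.705, 1.22 and 1.80 with chow.

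Guide arms of miRNAs that share a primary transcript or locus with let-7 hairpins were the 5 of the miR-99, miR-100 and miR-125 families. In EVs 0 of 5 passed in edgeR (1 at an unadjusted p under 0.05, 0 with DESeq2 and with limma), with a median of −0.13. miR-99a-5p, whose hairpin lies beside let-7c-1, averaged 60085 ± 12095 CPM in HFD EVs and 65754 ± 13905 CPM in chow EVs. In hippocampus 2 of 5 rose. miR-99a-5p averaged 28492 ± 5222 CPM in HFD hippocampus and 13197 ± 3216 CPM in chow hippocampus (log2 fold change 1.11 ± 0.25, adjusted p = 0.0281). miR-125b-5p, a partner of let-7a-2 with a second locus that was not located here, averaged 7440 ± 1492 CPM in HFD hippocampus and 4003 ± 391.7 CPM in chow hippocampus (0.89 ± 0.20, adjusted p = 0.0292).

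Markers of cell types moved with the diet in EVs as well. The 5 leukocyte markers summed to 2553 to 6483 CPM in HFD EVs and 737 to 1193 CPM in chow EVs, and 3 of 5 rose, among them miR-223-3p, a myeloid miRNA, by 3.12 ± 0.55 on the log2 scale (adjusted p = 0.0226). Endothelial miR-126a-3p was lower, at 916 to 969 CPM in HFD EVs, against 2347 to 2509 CPM in chow EVs. The 3 smooth muscle and fibroblast markers summed to 4502 to 6022 CPM in HFD EVs and 10682 to 13607 CPM in chow EVs, with 1 of 3 lower. That was miR-143-3p, at means of 2512 CPM with HFD and 9820 CPM with chow. miR-145a-5p was at −0.93 on the log2 scale (adjusted p = 0.195). miR-199a-3p went the other way, at 2813 CPM with HFD and 2320 CPM with chow (0.28, adjusted p = 0.703). The 2 glial markers summed to at most 2.77 CPM in HFD EVs and 2.42 CPM in chow EVs, too low to test. In EVs 0 of the neuron, red cell, liver, muscle and epithelium markers passed in edgeR (1 each of neuron, red cell and liver at an unadjusted p under 0.05 and with DESeq2). The neuron marker miR-9-5p was at 2.01 on the log2 scale (adjusted p = 0.122). Its other arm miR-9-3p, which was not on the list, rose by 3.39 (adjusted p = 0.0196). The part of these cell types in the let-7 values was not tested. In hippocampus the leukocyte sum was 322 to 360 CPM with HFD and 343 to 832 CPM with chow, and 0 of 5 passed in edgeR (2 at an unadjusted p under 0.05, 1 with DESeq2 and 0 with limma). The red cell sum in hippocampus was 78.7 to 159 CPM with HFD and 246 to 637 CPM with chow, with 1 of 3 lower. There 1 of 2 glial markers rose, and 1 of 3 muscle markers and the liver marker miR-122-5p fell, while 0 of the neuron, epithelium, endothelium and smooth muscle markers passed in edgeR (5 of these 11 at an unadjusted p under 0.05, 2 with DESeq2 and 1 with limma).

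Among 97 non-members with at least 100 CPM on average in both sample types, the profile most like that of the summed family over the 12 libraries, centred within each sample type, was that of miR-21a-5p (Pearson's r = 0.91). miR-342-3p (0.89), miR-9-3p (0.88), miR-146b-5p (0.82) and miR-26b-5p (0.81) came next. miR-21a-5p had a log2 fold change of 1.34 in EVs and −0.44 in hippocampus. miR-342-3p is one of the leukocyte markers.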

How the data were processed

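The authors deposited whole-number counts of reads for each mature miRNA and library, without normalisation, per the file headers. The submitters' processing notes name Bowtie. Its version and role, the genome build, the annotation and the counting tool were not given in the sources used here. There was 1 column of per-sample values without a matching sample, a further HFD column for hippocampus, which stayed unused. Hippocampus entries blank for the HFD libraries, 5 in all, were left out.

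Counts were fitted with edgeR 4.0.16 in R 4.3.3 (filterByExpr, TMM, robust quasi-likelihood F test, two-sided, Benjamini-Hochberg over all miRNAs tested, threshold 0.05), with each diet comparison on its 6 libraries and the interaction and the EV against hippocampus contrasts on all 12. The fit was tested on simulated data. Alternatives used library totals, DESeq2 1.42.0, limma 3.58.1, other filters, thinning, a correction for G and C, the replicate number as a block and each library left out. Libraries are numbered in the labels but not tied to separate animals, and the p-values therefore reflect spread between samples that may be technical.

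The 9 members were named in full. Passenger arms, cluster partners and marker miRNAs were named where called or abundant, and the 5 non-members most like the family by r. Members and lists were chosen with earlier results of these data known, and the permutation test of ratios between sample types and the pairs named were chosen after their values were seen. Sequences and loci came from RefSeq on GRCm38.p6, and host genes from GENCODE. Not every listed name had a sequence (1144 of 1348 did).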

Additional observations from a re-analysis of the deposited data

Results flagged for a closer look

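The diet effect differed between EVs and hippocampus for 2 members by the interaction test. let-7f-5p differed by 1.98 on the log2 scale, with a rise of 1.31 in EVs and a value of −0.58 in hippocampus that did not pass. miR-98-5p differed by 1.63, with 1.88 in EVs and 0.36 in hippocampus.

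The make-up of the family differed as well. The diet effect on the log2 ratio of let-7b-5p to let-7f-5p differed by −2.97 (EVs minus hippocampus), and that on the ratio of let-7c-5p to let-7f-5p by −2.44. All 3 HFD libraries lay beyond all 3 chow libraries in both sample types, on opposite sides. The exact permutation test, which takes the diet to have no effect in either sample type, gave p = 0.005, the smallest it can give. It was chosen after the values were seen. These ratios need no scaling between libraries. let-7b-5p (45.5% G and C) and let-7c-5p (40.9%) differ in base composition from let-7f-5p (31.8%). The part of base composition in the ratios was not tested, and in hippocampus depth and diet cannot be told apart.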

How the results depend on the processing

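The calls of let-7f-5p and miR-98-5p in EVs were kept in the 11 settings that used all libraries. The count of miRNAs called in EVs, 17, was 38 with library totals and in the fit of all 12 libraries, 29 with DESeq2's size factors and with the G and C correction, 55 with DESeq2, 56 without a filter and 31 with near-equal pairs kept once, and 0 to 21 with 1 library left out. Members called in EVs numbered 4 with library totals and 5 without a filter, and 0 to 4 with 1 library left out. In hippocampus the 65 calls became 33 with library totals, 109 with DESeq2, 29 in the fit of all 12 libraries and 8 to 123 with 1 library left out. The member count there, 0, became 1 with DESeq2's size factors, 2 with DESeq2, 1 with thinning and 0 to 1 with 1 library left out.

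For the interaction, 30 calls became 46 with DESeq2's size factors (23 higher and 23 lower, against 25 and 5 with TMM), 76 with DESeq2 and 15 to 42 with 1 library left out. Its 2 members became 3 with library totals (let-7g-5p added) and with DESeq2 (let-7b-5p added), 1 without a filter and with the G and C correction, and 0 to 2 with 1 library left out. For HFD EVs against HFD hippocampus the 8 members became 7 with DESeq2 and with robust fitting off. They became 6 with library totals, with DESeq2's size factors and with the replicate block. Without a filter and with the G and C correction they were 5, and with 1 library left out 4 to 8. For chow EVs against chow hippocampus the 5 members became 7 with DESeq2, with its size factors and with limma, 4 without a filter, and 4 to 7 with 1 library left out. Library totals moved the median of all miRNAs to 0.16 in EVs and 0.03 in hippocampus, against −0.13 with TMM in both.

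Signs turned for let-7c-5p in EVs (0.17 with library totals, 0.062 without a filter and −0.37 to 0.14 with 1 library left out), let-7a-5p in hippocampus (−0.059 in the fit of all 12 libraries, −0.0075 with near-equal pairs kept once and −0.099 to 0.18 with 1 library left out), let-7i-5p in hippocampus (−0.17 to 0.32 with 1 library left out), let-7i-5p in HFD EVs against HFD hippocampus (−0.013 without a filter) and the interaction of let-7d-5p (−0.028 to 0.53 with 1 library left out). With the G and C correction they turned for let-7f-5p (−0.24) and miR-98-5p (−0.11) in chow EVs against chow hippocampus and for let-7g-5p (−0.031) in HFD EVs against HFD hippocampus. The cause was not tested.

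As TMM-scaled CPM the family's share was 13.1% in HFD EVs and 6.98% in chow EVs, and 5.64% in HFD hippocampus and 6.29% in chow hippocampus, where the order of the means turned. Without the most abundant miRNAs in the denominator it was 19.2% in HFD EVs, 11.4% in chow EVs, 10.4% in HFD hippocampus and 11.2% in chow hippocampus.

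Within a sample type, HFD and chow libraries with the same number did not deviate together (correlations of −0.20 to 0.003 in EVs and −0.40 to 0.093 in hippocampus). So few pairs cannot show whether the numbers mark a batch. Whether EV and hippocampus libraries with the same number came from the same animal was not tested, and the fits over all 12 libraries treated them as unpaired. With the replicate number as a block, 9 miRNAs and 2 members were called in EVs, 35 and 0 in hippocampus, and 27 and 1 in the interaction. The block also ended the call of let-7e-5p in HFD EVs against HFD hippocampus (adjusted p = 0.0598). The thinning of EVs and the G and C correction were chosen after seeing the data. The rarest member, miR-98-5p, had 279 counts or more in every library, and depth and diet cannot be told apart in hippocampus.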
